A study of Mus musculus with 8 samples.

Results

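The proteasome subunit genes of the mouse were described in bulk RNA of spinal dorsal horn tissue of miR-96 knock-out and wild-type mice. The set took in every protein-coding gene whose GENCODE M21 symbol is Psm, a letter from a to g, a number and at most 1 further letter. This gave 49 of the 49585 gene rows: 19 genes of the core particle, 17 of the regulatory particle and 13 activators, inhibitors and assembly chaperones. There were 4 libraries from miR-96 knock-out mice and 4 from wild-type mice. All mice were adult C57BL/6J, the dorsal horn was taken at lumbar segments 4 to 6, and the labels name no other allele or agent. The design text counts 4 mice of each genotype, and no label ties a numbered library to an animal of its own, so a p-value here reflects only how these libraries vary, some of which may be technical. The title of the series concerns miR-96, sodium channels and allodynia (a pain response to light touch) and does not mention the proteasome.

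The proteasome is the large protease of the cytosol and nucleus that breaks down proteins tagged with ubiquitin. Its core particle is a stack of rings, outer alpha rings that form the gate and inner beta rings that hold the cutting sites. Its regulatory particle sits at the ends of the core, binds tagged proteins, removes the ubiquitin and unfolds the protein with a ring of ATPases. Neurons depend on it for protein turnover at synapses, and interferon makes many cells exchange the catalytic beta subunits for inducible ones that favour peptides for antigen presentation.

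MiR-96 is a microRNA that binds messages through bases 2 to 8, its seed, shown in capitals because these bases decide which messages can pair with it. The mature sequence, from RefSeq on GRCm38.p6 (chr6:30169506-30169528, minus strand), is
mmu-miR-96-5p: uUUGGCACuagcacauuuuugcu
The longest annotated 3′ untranslated region of each proteasome gene was searched on the message strand for GTGCCAA, the match to the seed, and for TGCCAAA, its shifted form that ends in A. The 2 forms overlap and can join. A match stood in 4 of the 47 proteasome genes with a region of at least 50 bases. Among genes expressed above the filter used below, 3 of 45 proteasome genes (6.67%) held one, against 20.5% of the 13058 genes with such a region. A longer region has more places for a match. The regions of these proteasome genes ran from 55 bases in Psmb10 to 2842 in Psmd5. Lengths were not matched between the sets, so the shares do not show that matches are rarer for their length. The 4 windows are shown from GENCODE M21 transcripts, with the match in capitals, since they are the only ones in the regions searched.
Psmb9: ggagatgagcTGCCAAAattctacgatg
Psmb11: tgcctactttGTGCCAActgtcatgcta
Psmd5: gtcctctggcTGCCAAAgtctctgctgc
Psmd10: aagagacctaTGCCAAAcagttcttttt
None of the 4 joins both forms, and a match of letters is not a tested binding site. Their values are given with their classes below.

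Each library gave 1 FPKM value per gene, fragments scaled to transcript length and to the fragments mapped in the library, so levels may be compared between genes. Of the 49 genes, 47 had a mean of at least 1 FPKM over the 8 libraries and were tested among the 15061 genes above that level. The exceptions were Psma8, an alpha subunit known from testis, at 0.0183 to 0.323 FPKM in knock-out and 0.0640 to 0.218 FPKM in wild type, and Psmb11, the thymic beta subunit, listed at 0 in 2 knock-out and 3 wild-type libraries and at no more than 0.0233 FPKM in any. Each log2 fold change is the knock-out mean of log2(FPKM + 1) minus that of wild type, with its standard error (SE) from limma. Wild type replicate 1 stood apart in many values below. It was the library of highest level for 31 of the 47 proteasome genes (66.0%) and for 30.0% of all genes tested. Its red cell markers summed to 199 FPKM, against 17.8 to 39.3 FPKM in knock-out and 5.96 to 34.4 FPKM in the other wild-type libraries. The 5 liver markers summed to 25.1 to 48.7 FPKM in knock-out and 1.28 to 9.95 FPKM in wild type; their part in the results was not tested. Every defining neuronal and dorsal horn marker (6 and 5 genes) was above 1 FPKM on average. In bulk RNA, fewer cells of a type and less RNA per cell cannot be told apart.

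Most proteasome genes averaged less in knock-out, but no single gene passed the test. The mean was lower for 40 of 47 genes, and for 46.9% of all genes tested. The median log2 fold change was -0.14, against 0.01 over all genes tested. Without wild type replicate 1 the mean was lower for 43 of 47 genes and for 7469 of the 15061 genes tested. The medians were then -0.08 and 0.0013. No proteasome gene had a limma adjusted p under 0.05, as was so for all 15061 genes tested (0%), and the lowest adjusted p in the set was 0.62. At an unadjusted p under 0.05 stood 2 proteasome genes, both lower in knock-out, beside 1.83% of all genes tested in that direction. Leaving out knock-out replicate 1, 2 or 4, or wild type replicate 1 or 2, gave 0 such genes. Over the 15061 genes tested these settings gave 325 to 607, in either direction. Omitting wild type replicate 3 gave 1, beside 711 of all genes tested in either direction. Omitting knock-out replicate 3 gave 4, beside 1438 of all genes tested in either direction. With wild type replicate 4 omitted there were 20, all lower in knock-out, beside 9.69% of all genes tested in that direction. Under library weights estimated from the data, 8 of 47 passed limma's adjusted threshold (lowest adjusted p = 0.0389), all lower in knock-out, beside 4.08% of all genes tested in that direction. One proteasome gene, Psmb8, had every knock-out library below every wild-type library, as did 1.12% of all genes tested.

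**Figure D1:**
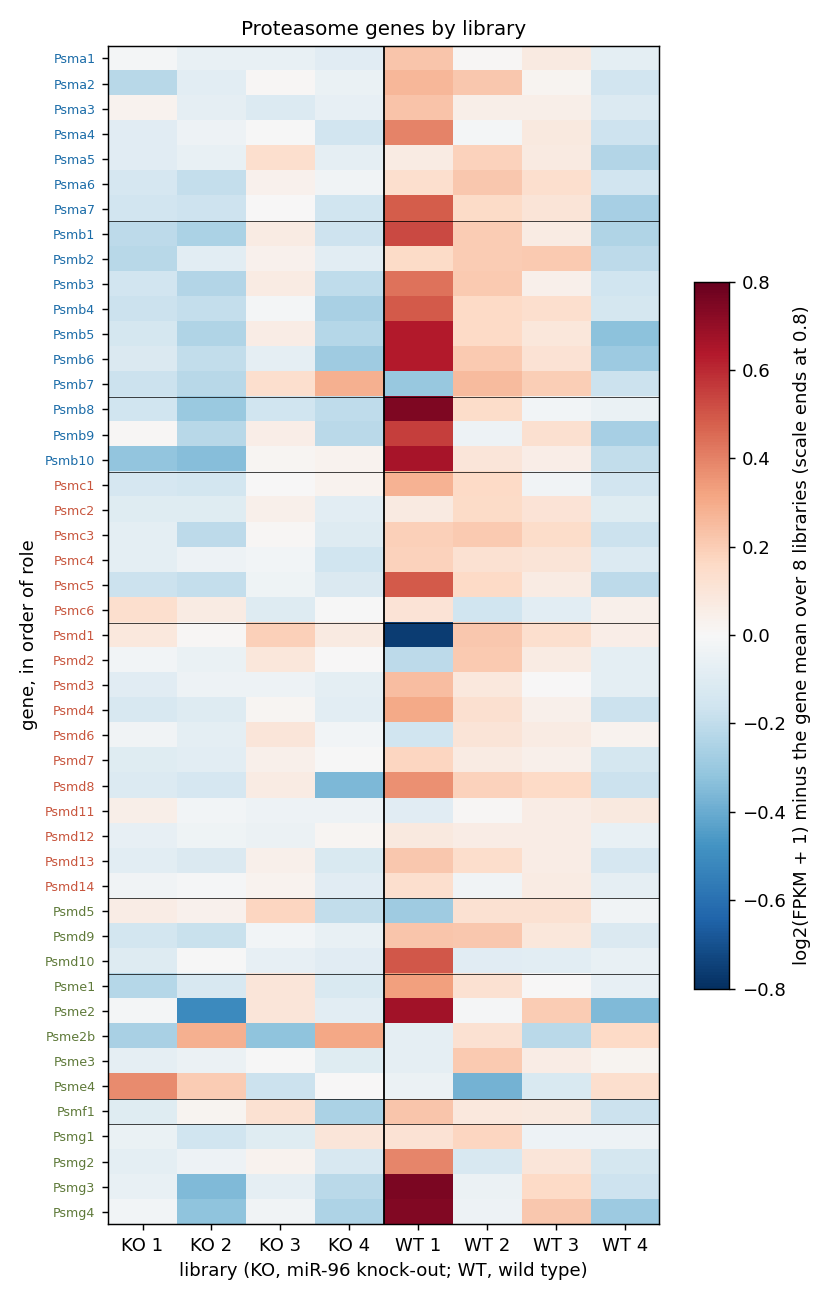
Each row is 1 of the 47 proteasome genes tested, in order of role, and each column a library, with the 4 miR-96 knock-out libraries (KO) left of the 4 wild-type libraries (WT). Colour is log2(FPKM + 1) minus the gene's mean over the 8 libraries, and gene names are blue for the core particle, red for the regulatory particle and green for activators, inhibitor and chaperones. WT 1 holds the highest value for 31 genes and WT 4 the lowest for 13, and Psmd1 is lowest in WT 1.

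The core and regulatory genes followed a like order of libraries. The median deviation of the 17 core genes tested from their own means was -0.151, -0.193, 0.0178 and -0.150 on the log2 scale in knock-out replicates 1 to 4, against 0.435, 0.160, 0.0751 and -0.170 in wild type replicates 1 to 4. Knock-out replicate 3 thus stood above the other knock-out libraries and wild type replicate 4 below the other wild-type ones, at the level of the knock-outs. For the 17 regulatory genes the medians were -0.0760, -0.0805, 0.0167 and -0.0806 in knock-out, against 0.174, 0.129, 0.0649 and -0.0963 in wild type. The summed level of the core genes was 1257 ± 71.7 FPKM in knock-out and 1481 ± 245 FPKM in wild type (SD, n = 4 each), and that of the regulatory genes 1492 ± 54.0 FPKM and 1616 ± 129 FPKM. In both classes the genotypes overlapped, through wild type replicate 4.

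The alpha ring, which gates the core, had all 7 tested genes with a lower mean in knock-out (median log2 fold change -0.14), none with an unadjusted p under 0.05. Without wild type replicate 1 the median was -0.06 with all 7 lower, and with the length trend of transcripts removed 6 of 7 were lower. Psma7, which showed the lowest p of the ring, was at 99.9, 98.9, 111 and 99.6 FPKM in knock-out replicates 1 to 4, against 156, 124, 119 and 92.5 FPKM in wild type replicates 1 to 4. The difference was -0.24 (SE 0.14), with the lowest of the 8 values in wild type. Psma6, the most abundant alpha gene, was at 123, 118, 138 and 132 FPKM in knock-out and 148, 157, 148 and 121 FPKM in wild type (-0.16, SE 0.10). Psma5 differed least, at 60.0 ± 4.62 FPKM in knock-out and 62.1 ± 7.45 FPKM in wild type (-0.04, SE 0.10). The 7 subunit proteins stand in the ring in equal numbers. Their RNA levels lay within 2.02- to 2.29-fold of each other in each knock-out library and within 2.26- to 2.46-fold in each wild-type library.

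Of the 7 constitutive beta genes, 6 had a lower mean in knock-out (median log2 fold change -0.28). Without wild type replicate 1 all 7 did, with a median of -0.16. Psmb4 (chromosome 3, 94884093 to 94886961), a beta subunit without a cutting site of its own, is the most abundant core gene and had the lowest p of the whole set. It was at 169, 166, 188 and 158 FPKM in knock-out replicates 1 to 4, against 267, 212, 208 and 172 FPKM in wild type replicates 1 to 4. All but 1 of the knock-out values lay below the lowest wild-type value. The log2 fold change was -0.32 (SE 0.13, 95% interval -0.61 to -0.03, unadjusted p = 0.0338, limma adjusted p = 0.62). Without wild type replicate 1 it was -0.21. Psmb3, also without a cutting site, was at 59.1, 55.7, 68.8 and 57.1 FPKM in knock-out, against 89.2, 76.2, 67.6 and 58.7 FPKM in wild type (-0.26, SE 0.13). Psmb1 averaged 98.3 ± 10.1 FPKM in knock-out and 121 ± 27.0 FPKM in wild type (-0.28, SE 0.15), and Psmb2 61.4 ± 4.49 FPKM and 70.0 ± 9.31 FPKM (-0.18, SE 0.11).

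Among the 3 catalytic subunits, Psmb5, which carries the chymotrypsin-like site, was at 64.6, 60.1, 74.4 and 60.8 FPKM in knock-out replicates 1 to 4, against 111, 79.8, 75.9 and 56.5 FPKM in wild type replicates 1 to 4. Psmb6, with the caspase-like site, was at 129, 122, 133 and 114 FPKM in knock-out and 217, 162, 152 and 114 FPKM in wild type. In both genes wild type replicate 1 was far above the rest and wild type replicate 4 had the lowest value, in Psmb6 level with knock-out replicate 4, and the log2 fold changes were -0.28 (SE 0.18) and -0.34 (SE 0.17). Psmb7, with the trypsin-like site, was at 37.0, 35.8, 46.0 and 51.2 FPKM in knock-out and 33.8, 50.2, 48.1 and 37.1 FPKM in wild type. Here wild type replicate 1 was the lowest library, and the log2 fold change was 0.01 (SE 0.16, 95% interval -0.34 to 0.36). Without that library Psmb5, Psmb6 and Psmb7 were at -0.11, -0.18 and -0.09, all lower in knock-out, and the differences between the 3 genes were not tested. Exons of Psmb7 overlap those of Nek6 on the opposite strand over 11.8% of their length, and the sources used here do not say whether counting used strand.

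The inducible subunits, which take the places of these 3 after interferon, were at very different levels. Psmb8 (chromosome 17, 34197721 to 34201454), the counterpart of Psmb5, was at 1.95, 1.69, 1.96 and 1.86 FPKM in knock-out, against 4.55, 2.66, 2.25 and 2.19 FPKM in wild type. The genotypes did not overlap, though the highest knock-out and the lowest wild-type values lay close together. The log2 fold change was -0.41 (SE 0.18, 95% interval -0.81 to -0.01, unadjusted p = 0.0438, limma adjusted p = 0.62), or -0.23 without wild type replicate 1. On the antisense strand Gm20496 overlaps 14.7% of its exon length. As a share of Psmb5, Psmb8 was at 2.63% to 3.07% in knock-out libraries and 2.97% to 4.09% in wild-type libraries.

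Psmb9 (chromosome 17, 34181987 to 34187764), the counterpart of Psmb6, lies 9957 bases from Psmb8 and holds one of the matches to the miR-96 seed. It was at 2.78, 2.21, 2.89 and 2.23 FPKM in knock-out, against 4.52, 2.64, 3.10 and 2.13 FPKM in wild type (-0.19, SE 0.18, or -0.03 without wild type replicate 1). The genotypes overlapped, and the level was 1.82% to 2.18% of Psmb6 in knock-out and 1.63% to 2.08% in wild type. Psmb10, the counterpart of Psmb7, was as abundant as the constitutive gene, at 38.7, 38.1, 49.1 and 49.5 FPKM in knock-out and 77.0, 51.8, 50.2 and 42.2 FPKM in wild type (-0.30, SE 0.17). It stood at 96.7% to 107% of Psmb7 in knock-out and 103% to 114% in wild type replicates 2 to 4, but at 228% in wild type replicate 1. Of 13 tested genes of interferon response and antigen presentation, 11 had a lower mean in knock-out (median log2 fold change -0.11), and 0 had an unadjusted p under 0.05. Without wild type replicate 1, 8 of the 13 were lower and the median was -0.03. Their list summed to 318 to 367 FPKM in knock-out, and to 489 FPKM in wild type replicate 1 and 319 to 379 FPKM in the other wild-type libraries. The 4 microglial markers summed to 50.1 to 57.1 FPKM in knock-out and 45.5 to 60.0 FPKM in wild type, highest in wild type replicate 1, and the 7 blood leukocyte markers to 2.09 to 26.2 FPKM and 0.888 to 25.7 FPKM, with 14.4 FPKM in that library. The part of these cells in the level of inducible subunits was not tested.

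**Figure D2:**
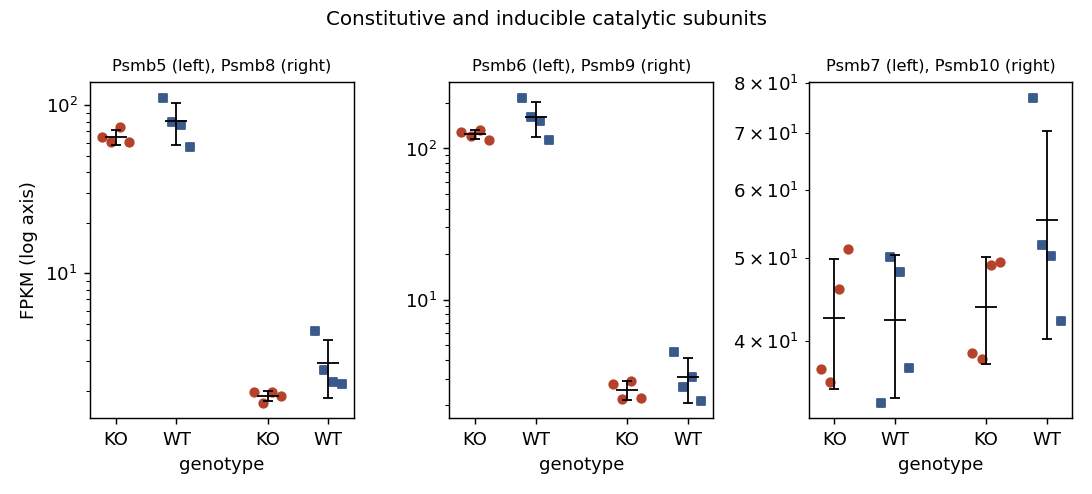
Level in FPKM on a log axis of each constitutive catalytic gene (left in each panel) and its inducible counterpart (right), with the 4 knock-out libraries (circles) left of the 4 wild-type libraries (squares), and bars for the mean and SD. Psmb8 and Psmb9 lie at 1.69 to 4.55 FPKM in every library, Psmb10 at 38.1 to 77.0 FPKM beside Psmb7 at 33.8 to 51.2 FPKM.

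In the regulatory particle 14 of 17 genes had a lower mean in knock-out (median log2 fold change -0.12), and none had an unadjusted p under 0.05. Among the 6 ATPases, which unfold the substrate, 5 were lower. Psmc5 (chromosome 11, 106256154 to 106263120) is the most abundant gene of the whole set. It was at 192, 190.2, 212 and 200.3 FPKM in knock-out replicates 1 to 4, against 305, 242, 227 and 187 FPKM in wild type replicates 1 to 4. Wild type replicate 4 again had the lowest value, and the log2 fold change was -0.25 (SE 0.14). Psmc3 was at 127, 116, 135 and 125 FPKM in knock-out and 154, 156, 149 and 119 FPKM in wild type (-0.19, SE 0.10). Psmc2, the least abundant regulatory gene, was at 36.0, 36.0, 39.7 and 36.3 FPKM in knock-out and 40.5, 43.0, 41.6 and 36.0 FPKM in wild type (-0.12, SE 0.08). Psmc6 was the ATPase with a higher mean in knock-out, at 46.0 ± 3.26 FPKM, against 44.5 ± 3.84 FPKM in wild type (0.05, SE 0.09). The ATPase proteins form a ring of 1 copy each. Their RNA levels spanned 5.29- to 5.52-fold within knock-out libraries and 5.21- to 7.53-fold within wild-type libraries, and protein was not measured here.

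The 11 other regulatory subunits of the set belong to the scaffold, the lid and the ubiquitin receptors. Of them, 9 had a lower mean in knock-out (median log2 fold change -0.07). Psmd8, a lid subunit (chromosome 7, 29174188 to 29180701), had the lowest p of the regulatory particle. It was at 59.0, 57.9, 66.6 and 49.4 FPKM in knock-out, against 82.4, 72.4, 71.2 and 56.3 FPKM in wild type (-0.27, SE 0.13, unadjusted p = 0.0651, limma adjusted p = 0.62). Wild type replicate 4 lay inside the knock-out range and the other wild-type libraries above it. Psmd4, a ubiquitin receptor, averaged 85.4 ± 3.86 FPKM in knock-out and 95.5 ± 13.2 FPKM in wild type (-0.15, SE 0.11). Psmd14, the enzyme that cuts ubiquitin off, averaged 85.8 ± 2.91 FPKM and 88.9 ± 5.87 FPKM (-0.05, SE 0.08).

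The large scaffold subunits are Psmd1 and Psmd2. Psmd1 (chromosome 1, 86064387 to 86139151) was at 83.8, 79.4, 90.4 and 83.0 FPKM in knock-out, against 46.2, 91.9, 86.6 and 82.0 FPKM in wild type. Wild type replicate 1 stood alone below the other 7 libraries, which overlapped between genotypes. The log2 fold change was 0.18 (SE 0.19), and -0.04 without that library. Psmd2 was at 152, 149, 164 and 155 FPKM in knock-out and 133, 178, 162 and 146 FPKM in wild type (0.01, SE 0.10), also lowest in wild type replicate 1, and was at -0.06 without it. Without that library, 16 of the 17 regulatory genes and 17 of 17 core genes had a lower mean in knock-out, and the medians were closer to 0, at -0.07 and -0.12.

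**Figure D3:**
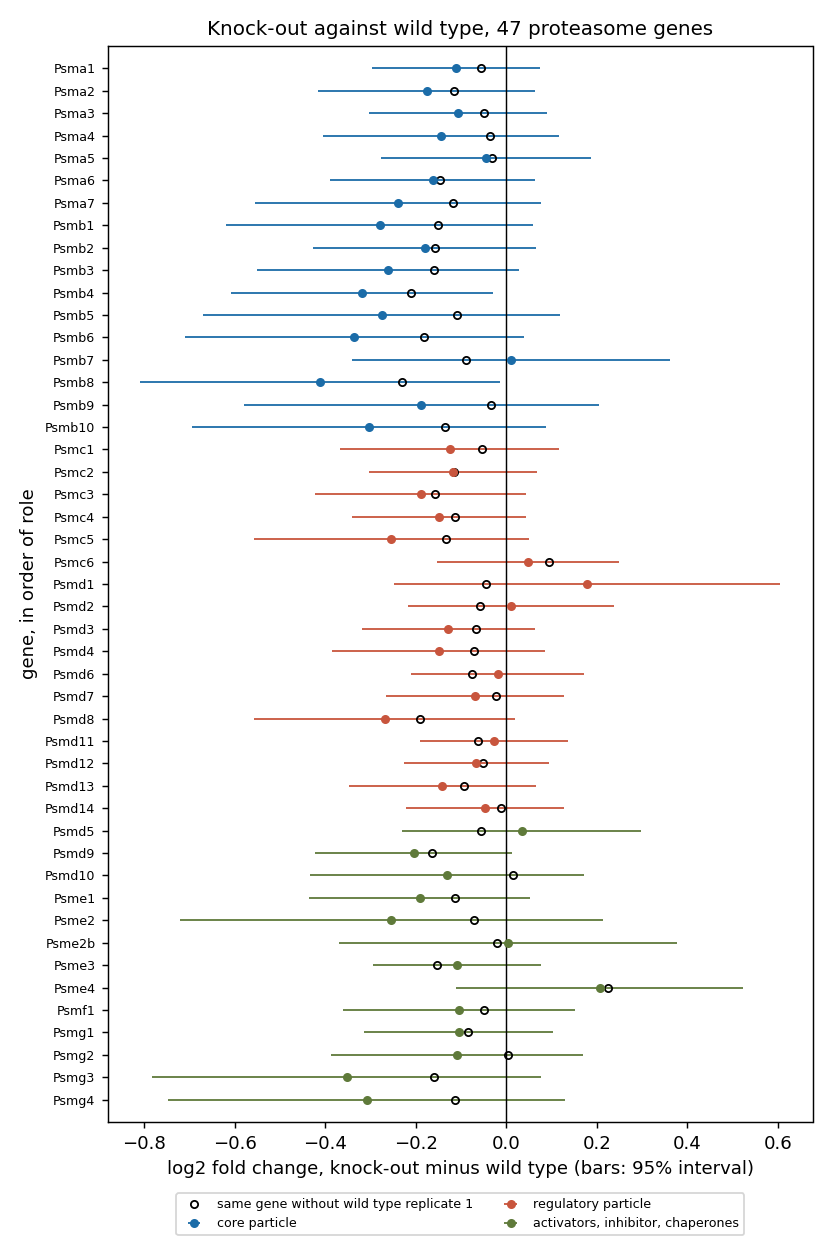
Log2 fold change of FPKM + 1, knock-out minus wild type, for the 47 proteasome genes tested, in order of role. Filled points and bars are the estimates over 8 libraries with their 95% intervals, and open circles the estimates without wild type replicate 1. Of the intervals, those of Psmb4 and Psmb8 lie below 0.

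Among the 13 associated genes, 10 had a lower mean in knock-out (median log2 fold change -0.11, or -0.07 without wild type replicate 1). Psmd9, a chaperone that helps assemble the ATPase ring (chromosome 5, 123169413 to 123250131), had the lowest p, at 19.7, 19.2, 21.6 and 21.05 FPKM in knock-out and 25.7, 25.6, 23.4 and 20.2 FPKM in wild type (-0.20, SE 0.10, unadjusted p = 0.0618, limma adjusted p = 0.62). A noncoding gene on the opposite strand, Gm26745, overlaps 25.5% of its exon length. The other chaperones of that ring, Psmd5 and Psmd10, hold a match to the miR-96 seed. Psmd5 was at 30.1, 29.4, 32.5 and 24.9 FPKM in knock-out and 23.4, 31.3, 31.4 and 28.2 FPKM in wild type (0.03, SE 0.12, 95% interval -0.23 to 0.30). Psmd10 was at 13.6, 14.6, 13.9 and 13.7 FPKM in knock-out and 21.1, 13.7, 13.7 and 14.01 FPKM in wild type (-0.13, SE 0.14, 95% interval -0.43 to 0.17). Of the 8 libraries, 7 lay between 13.6 and 14.6 FPKM, and without wild type replicate 1 the log2 fold change was 0.01.

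The 4 chaperones of core assembly all had a lower mean in knock-out (median log2 fold change -0.21). Without wild type replicate 1, 3 of the 4 did, the median was -0.10, and Psmg2 was at 0.0041. Psmg3 was the least abundant associated gene, at 3.41, 2.60, 3.38 and 2.95 FPKM in knock-out and 6.76, 3.46, 4.15 and 3.10 FPKM in wild type (-0.35, SE 0.19, or -0.16 without wild type replicate 1). Psmg4 averaged 16.1 ± 1.81 FPKM in knock-out and 20.9 ± 7.05 FPKM in wild type (-0.31, SE 0.20), Psmg1 16.7 ± 1.36 FPKM and 18.1 ± 1.46 FPKM (-0.10, SE 0.09) and Psmg2 12.6 ± 0.608 FPKM and 13.9 ± 2.68 FPKM (-0.11, SE 0.12). In Psmg3 and Psmg4 most of the difference lay in wild type replicate 1, where Psmg4 reached 30.7 FPKM. Psmf1, an inhibitor of the core, averaged 14.2 ± 1.67 FPKM in knock-out and 15.4 ± 1.79 FPKM in wild type (-0.11, SE 0.11).

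The activators dock on the core in place of the regulatory particle. Psme1 and Psme2 form the activator induced by interferon, and their genes lie 5912 bases apart on chromosome 14. Psme1 was at 28.9, 31.1, 36.6 and 31.2 FPKM in knock-out, against 43.1, 37.1, 34.2 and 32.5 FPKM in wild type (-0.19, SE 0.11). Psme2 was at 28.8, 20.2, 31.3 and 27.4 FPKM in knock-out and 46.97, 28.9, 33.6 and 22.6 FPKM in wild type (-0.25, SE 0.21). Psme2b is an intronless copy on chromosome 11 whose transcript matches Psme2 at 789 of 794 aligned bases (99.4%), so the authors' counting could have split reads between them and both values are uncertain. It was at 10.2, 15.3, 9.74 and 15.7 FPKM in knock-out and 11.8, 13.6, 10.6 and 14.01 FPKM in wild type, and in each genotype its 2 highest libraries were the 2 lowest for Psme2. Psme3, the activator of the nucleus and the most abundant associated gene, was at 99.1, 101, 104 and 97.1 FPKM in knock-out and 98.8, 121, 109 and 106 FPKM in wild type (-0.11, SE 0.08). Psme4, another nuclear activator (chromosome 11, 30771726 to 30880361), had the largest higher mean in knock-out, at 43.7, 38.5, 29.6 and 33.5 FPKM, against 32.3, 25.5, 30.6 and 36.8 FPKM in wild type (0.21, SE 0.14). It has the longest transcript of the set. Once each library's length trend was removed the log2 fold change was 0.05, or 0.14 with wild type replicate 1 also left out. Leaving out wild type replicate 1 alone gave 0.23. The part of length in this difference was not tested.

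Proteasome messages are short, and length moved with the result. The longest annotated transcript had a median of 1883 bases over the 47 genes (1311 for core and 1983 for regulatory genes), against 3193 over all genes tested. Across the 47 genes, Spearman's rho of log2 fold change with transcript length was 0.39, and across all genes tested 0.44. Without wild type replicate 1 the rho over the 47 genes was 0.14, so much of the relation rested on that library. Genes are not independent replicates and share the 8 libraries. Level in wild type replicate 1 over the mean of the other wild-type libraries had a median of 1.35 in the 17 genes under 1500 bases, 1.23 in the 16 between 1500 and 2500, and 1.02 in the 14 above. Once each library's length trend was removed, 37 of 47 genes had a lower mean in knock-out, as did 8344 of the 15023 genes with an annotated length. The median log2 fold change was -0.16 for core genes, -0.04 for regulatory genes and -0.02 over all genes tested. Psmb4, Psmb6 and Psmb8 were then at -0.24, -0.26 and -0.35. With the trend removed and wild type replicate 1 also left out, 41 of 47 had a lower mean. The count over all genes is not given for that setting, so this count cannot be set against that of genes at large.

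**Figure D4:**
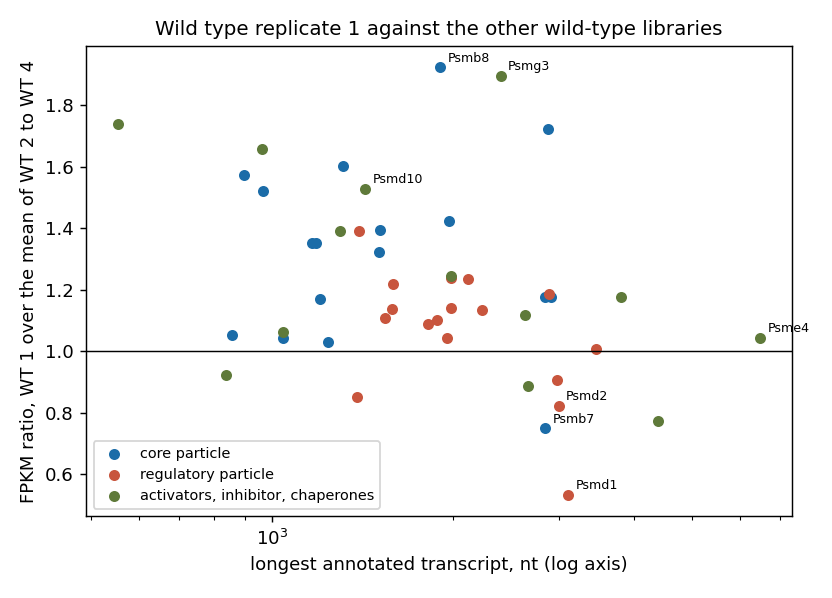
Each point is 1 of the 47 proteasome genes tested, with its longest annotated transcript in bases (log axis) across and its FPKM in wild type replicate 1 divided by the mean of wild type replicates 2 to 4 up the page. Points above the line at 1 are genes higher in replicate 1; the median ratio is 1.35 under 1500 bases and 1.02 above 2500, with Psmd1 lowest at 0.532.

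Other families of abundant messages were also highest in wild type replicate 1. All 77 tested cytosolic ribosomal protein genes had a lower mean in knock-out (median log2 fold change -0.34), as did 33 of 36 complex I subunit genes (-0.24). In wild type replicate 1 their median deviation was 0.897 and 0.573 on the log2 scale, against 0.435 for core and 0.174 for regulatory proteasome genes. Without that library the medians were -0.11 for ribosomal, -0.11 for complex I, -0.12 for core and -0.07 for regulatory genes. The differences between these families were not tested.

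A list of 36 genes linked to the proteasome held ubiquitin genes, shuttle factors and regulators. It also held Sem1 and Adrm1, subunits of the regulatory particle that the symbol rule leaves out. All 36 were tested and 22 had a lower mean in knock-out (median log2 fold change -0.02), with 0 at an unadjusted p under 0.05. The 4 of lowest p were higher in knock-out. Uba6, a ubiquitin-activating enzyme, was at 6.47 ± 1.32 FPKM in knock-out and 4.65 ± 1.52 FPKM in wild type (0.42, SE 0.20), and the ubiquitin ligase Ube3a at 39.9 ± 8.78 FPKM and 31.0 ± 7.57 FPKM (0.35, SE 0.20). Ecpas, a proteasome adaptor, had a log2 fold change of 0.27 (SE 0.13), and Ddi2, a protease that cuts the transcription factor made from Nfe2l1, 0.25 (SE 0.12). With the length trend removed these 4 were at 0.26, 0.09, 0.10 and -0.01. Nfe2l1 and Pomp were picked after their values were seen. Nfe2l1, whose product drives proteasome genes when the protease fails, averaged 215 ± 7.98 FPKM in knock-out and 217 ± 15.1 FPKM in wild type (-0.01, SE 0.08). Pomp, the chaperone that matures the core, was at 84.2 ± 2.14 FPKM and 107 ± 32.4 FPKM (-0.29, SE 0.18).

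Since many members had a lower mean together, their promoters were searched for letters known from regulators of proteasome genes, from 250 bases before to 50 bases after the start site. RefSeq windows on GRCm38.p6 were matched by symbol for 41 of the 49 genes. Psma8, Psmb1, Psmb2, Psmb7, Psmc3, Psmd3, Psmd7 and Psmg2 had no matched window and were not searched. The core of the antioxidant response element, TGACNNNGC on either strand, through which the product of Nfe2l1 acts, stood in 6 of 41 genes (14.6%) and in 13.99% of the 27025 genes with a window. GGGCGG, the GC box, stood in 56.1% of proteasome genes and 38.2% of all, CCAAT in 34.1% and 41.1%, and AAGATGGC, a core of the YY1 motif, in 7.32% and 3.19%, each on either strand. The 27025 genes were not limited to those expressed here, so the shares do not compare like with like. The 6 genes were Psmb5, Psmb6, Psmc6, Psmd9, Psmd12 and Psme4. The windows shown are those of the catalytic genes Psmb5 (chr14:54617946-54618245, minus strand) and Psmb6 (chr11:70525107-70525406, plus strand), which had lower means in knock-out, and that of Psme4 (chr11:30771525-30771824, plus strand), which had a higher one, with TGACNNNGC or its reverse complement in capitals.
Psmb5: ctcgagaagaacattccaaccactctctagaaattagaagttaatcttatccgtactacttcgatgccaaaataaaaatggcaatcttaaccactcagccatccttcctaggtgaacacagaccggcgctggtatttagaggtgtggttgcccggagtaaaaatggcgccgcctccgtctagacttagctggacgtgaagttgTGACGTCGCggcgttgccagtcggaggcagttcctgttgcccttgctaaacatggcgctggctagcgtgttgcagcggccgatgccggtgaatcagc
Psmb6: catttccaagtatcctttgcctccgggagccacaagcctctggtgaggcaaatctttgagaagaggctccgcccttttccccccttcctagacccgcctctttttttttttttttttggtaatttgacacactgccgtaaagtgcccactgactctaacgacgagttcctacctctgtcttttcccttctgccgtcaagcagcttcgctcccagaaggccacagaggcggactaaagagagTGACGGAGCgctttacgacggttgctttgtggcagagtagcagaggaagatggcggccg
Psme4: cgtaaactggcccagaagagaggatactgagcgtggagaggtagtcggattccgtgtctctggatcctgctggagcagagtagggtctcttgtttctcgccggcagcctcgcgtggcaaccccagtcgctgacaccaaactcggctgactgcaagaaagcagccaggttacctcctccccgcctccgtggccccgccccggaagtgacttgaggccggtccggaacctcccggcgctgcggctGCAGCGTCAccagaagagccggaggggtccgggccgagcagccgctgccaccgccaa
The middle base of the match lay at -43, -5 and -3 from the start site in Psmb5, Psmb6 and Psme4. The 3 genes, picked to show both directions, had log2 fold changes of -0.28, -0.34 and 0.21. Psmd9, Psmd12 and Psmc6, which also hold the letters, were at -0.20, -0.07 and 0.05. A link between the letters and the fold changes was not tested.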

How the data were processed

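Total RNA extracted with Trizol went into NEBNext Ultra libraries and polyA RNA was sequenced, per the labels. The submitters' processing notes name HISAT2, SAMtools and Cufflinks; their versions, options and strand setting were not given in the sources used here. For each of 8 libraries the authors deposited FPKM values by gene. These notes name mm8 as the build, yet the file's locus was that of GENCODE M21 on GRCm38 for 38 of the 49 genes and overlapped it for all, so coordinates are on GRCm38, numbered from 1. FPKM steps in genes with 1 transcript of at least 3000 bases, at an assumed fragment length of 200, put the depth at 32000000 to 43100000 fragments per library (96.4% to 98.0% of low values within 0.15 of a whole number).

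Knock-out was compared with wild type with limma 3.58.1 under R 4.3.3 (linear model with 2-sided empirical Bayes tests, trend and robust settings on); values entered as log2(FPKM + 1), which understates changes of low genes. All 15061 genes with a mean of at least 1 FPKM were fitted, with Benjamini-Hochberg adjustment over them and a threshold of 0.05. The fit was tested on simulated data. Lists are described by counts and medians only. The members, lists and alternatives were chosen with earlier results of these data known. Rules named every proteasome gene, with library values for the 3 of lowest p per class, the catalytic genes and the most and least abundant, and 4 linked genes of lowest p; library values of other genes, and Nfe2l1 and Pomp, were chosen after their values were seen. Other Psm symbols, among them pseudogenes, were left out, as were subunits with other symbols, such as Sem1 and Adrm1.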

Additional observations from a re-analysis of the deposited data

Results flagged for a closer look

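In 6 of 94 groups of 4 libraries of 1 genotype, 1 library lay far from the other 3 by Dixon's 95% criterion on the gap over the range; chance gives about 1 in 20 such groups. In knock-out replicate 3, Psma5 was at 66.9 FPKM (others 56.9 to 58.2), Psma7 at 111 FPKM (others 98.9 to 99.9) and Psmc2 at 39.7 FPKM (others 36.0 to 36.3), each the highest knock-out library. In wild type replicate 4, Psmb2 was at 56.2 FPKM (others 72.8 to 75.7) and Psmd12 at 51.1 FPKM (others 55.6 to 56.5), each the lowest wild-type library. In wild type replicate 1, Psmd10, a chaperone of the regulatory particle, was at 21.1 FPKM (others 13.67 to 14.01). The causes were not tested.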

How the results depend on the processing

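With estimated library weights, proteasome genes past limma's adjusted threshold numbered 8 of 47, all lower in knock-out (Psma6, Psma7, Psmb2, Psmb4, Psmb6, Psmc3, Psmd8 and Psmd9, log2 fold changes -0.31 to -0.23, adjusted p = 0.0389 to 0.0492), beside 1627 of all genes (10.8%). At an unadjusted p under 0.05 there were 27 proteasome genes and 5014 of all. The weight was 5.09 for wild type replicate 3 and 0.153 for wild type replicate 1. At that unadjusted threshold the 2 proteasome genes became 1 with a mean of at least 5 FPKM (555 of all genes). They became 1 with quantile normalization (869 of all genes) and 4 with the replicate block (790 of all genes). There was 1 with the length trend removed and wild type replicate 1 omitted, a setting added after seeing the data (533 of all genes). Without the filter, 1396 of all genes passed it. Leaving out 1 library gave 0 to 20 proteasome genes and 325 to 3151 of all genes, and 0 to 1 of all past the adjusted threshold. The sources used here do not say that replicate numbers pair the libraries. Correlations of same-numbered libraries were -0.11, -0.055, 0.024 and 0.14. Differently numbered libraries were not set beside them, so these values cannot settle the question. The replicate block changed no adjusted call.

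The median of linked genes was -0.053 with weights, -0.051 with the length trend removed, 0.0097 with quantile normalization and -0.035 to 0.0015 with 1 library omitted. Of 843 gene values under other settings, 42 in 12 genes had the opposite sign. With weights Psmb7 was at -0.24, Psmd1 at -0.058, Psmd2 at -0.088, Psmd5 at -0.093 and Psmd10 at 0.022. With the length trend removed Psma5 was at 0.040, Psmd14 at 0.036, Psmd5 at -0.029, Psmd6 at 0.066 and Psmd7 at 0.013. With wild type replicate 1 also omitted Psmb7 was at -0.078, Psmd1 at -0.040, Psmd2 at -0.051, Psmd5 at -0.085, Psmd7 at 0.0011, Psmd10 at 0.034, Psmd14 at 0.012, Psme2b at -0.028 and Psmg2 at 0.020. Quantile normalization put Psmd6 at 0.019, Psmd11 at 0.0013 and Psme2b at -0.031, and median-ratio rescaling Psme2b at -0.00067. With 1 library omitted, the range was -0.13 to 0.010 for Psma5, -0.088 to 0.097 for Psmb7, -0.045 to 0.28 for Psmd1, -0.059 to 0.080 for Psmd2, -0.055 to 0.11 for Psmd5, -0.076 to 0.013 for Psmd6, -0.18 to 0.014 for Psmd10, -0.098 to 0.11 for Psme2b and -0.17 to 0.0041 for Psmg2. The causes were not tested. Depth limits mainly Psma8 and Psmb11, which were below the filter.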
